A study of Homo sapiens with 21 samples.

Results

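MME, ARPP21, CBLN1, BRINP3 and NELL2 are 5 of the 62699 genes counted in stem-cell-derived islet cells. They were picked because their counts were lower in libraries labelled with an ISL1-carrying lentivirus than in libraries labelled with the control virus, in lines that lack an islet transcription factor. That choice used the knockout libraries, so every value in a knockout line, and the height of the knockout controls over the wild type, is given here as a description with its standard error and without a test. The wild-type line was not part of the choice. For MME, ARPP21, CBLN1 and BRINP3 the comparison within it was tested; NELL2 had been noted earlier from a difference that includes the wild type, so its wild-type value is a description too.

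The study used H1, an established human embryonic stem cell line, as wild type (WT) and with the genotypes ISL1-/-, PAX6-/- and PDX1-/-. ISL1 is a LIM-homeodomain factor of islet and neural cells, PAX6 is a paired-box factor of endocrine cells, and PDX1 is a homeodomain factor of the pancreas and of the mature beta cell. A lentivirus was added on day 11 of islet differentiation. It carried ISL1 together with the reporter BFP (blue fluorescent protein) or, as control, the reporter by itself, and on day 18 the cells showing the reporter were collected by flow sorting. There were 8 groups and 21 libraries: 3 libraries each for ISL1-/- with BFP, ISL1-/- with ISL1, PAX6-/- with BFP, PAX6-/- with ISL1 and PDX1-/- with BFP, and 2 each for PDX1-/- with ISL1, WT with BFP and WT with ISL1. The series' design text calls the replicates biological. The number of clones behind each genotype, the promoter of the vectors and the kind of knockout allele are not given in the sources used here.

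Assigned counts ran from 36807615 to 60199880 per library. Counts of ISL1 itself did not separate the vector groups: mean ISL1 levels in CPM, counts scaled to a common library size, were 413 in WT with BFP and 349 in WT with ISL1, and 76.9 and 84.5 in the matching ISL1-/- groups. The groups are therefore called by their labels. PAX6 and PDX1 counts did not tell their own knockouts from WT either, which for alleles that still make RNA is no check of the label. Mitochondrial transcripts took 3.16% of counts in PAX6-/- with ISL1 replicate 3 and 3.84% in PDX1-/- with ISL1 replicate 4, against 1.28% to 1.93% in the other 19 libraries. Results that rest on either library are given with and without it.

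The 5 genes have unlike jobs. MME encodes neprilysin, a zinc metallopeptidase of the cell surface that cuts small peptides, glucagon and amylin among them. ARPP21 encodes a cyclic-AMP-regulated phosphoprotein with an R3H RNA-binding domain, best known from striatal neurons, and its gene holds a microRNA in an intron. CBLN1 is a secreted C1q-family protein that links neurexins on axons to delta-type glutamate receptors at cerebellar synapses. BRINP3 is a neural protein related to the astrotactins, and NELL2 is a secreted glycoprotein that signals to axons through ROBO3 and acts on the kinase ROS1 in the epididymis. In sorted bulk samples fewer cells that carry a transcript and less RNA per cell cannot be told apart.

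In the files' build, GRCh38, MME (ENSG00000196549.13) spans chr3:155024124-155183704 on the plus strand and ARPP21 (ENSG00000172995.17) chr3:35638945-35794496 on the plus strand. CBLN1 (ENSG00000102924.13) lies on the minus strand at chr16:49277917-49281838, BRINP3 (ENSG00000162670.11) on the minus strand at chr1:190097658-190478404, and NELL2 (ENSG00000184613.11) on the minus strand at chr12:44508275-44921848. All 5 genes passed the filter on low counts, with at least 95 and at most 27367 counts in any library. Antisense genes share 214 exon bases with MME (MME-AS1) and 142 with BRINP3, and held at most 29 and 31 counts. The counting's strand setting is not given in the sources used here, so reads in the shared bases cannot be assigned to a strand.

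MME, the peptidase gene, differed little between the vectors in WT and several-fold in each knockout. In WT it stood at 71.8 and 82.1 CPM with BFP and at 69.4 and 57.8 CPM with ISL1. In ISL1-/- the BFP libraries held 197, 253 and 244 CPM and the ISL1 libraries 52.8, 68.5 and 56.5 CPM. In PAX6-/- the levels were 132, 84.6 and 106 CPM with BFP and 21.5, 36.6 and 10.8 CPM with ISL1. Every ISL1-labelled library of these 2 knockouts therefore lay below every BFP-labelled one, and the PAX6-/- libraries with ISL1 also lay below all WT libraries. In PDX1-/- the BFP libraries reached 478, 489 and 428 CPM, the highest MME levels of the series, and the ISL1 libraries held 97.6 CPM (replicate 2) and 28 CPM (replicate 4). On the log2 scale the ISL1-labelled groups differed from their BFP controls by -1.96 ± 0.40 (standard error) in ISL1-/-, -2.22 ± 0.40 in PAX6-/- and -2.89 ± 0.48 in PDX1-/-, a 3.9-fold, 4.67-fold and 7.4-fold lower level.

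ARPP21 covered the widest range, 53.6-fold between its lowest and its highest library. In WT it was low throughout, at 9.98 and 14.1 CPM with BFP and 5.69 and 4.32 CPM with ISL1. In ISL1-/- it stood at 50.2, 46.2 and 85.0 CPM with BFP against 12.8, 13.6 and 19.5 CPM with ISL1. In PAX6-/- the values were 39.0, 24.7 and 29.7 CPM against 4.95, 9.36 and 7.38 CPM. Again no ISL1-labelled library reached a BFP-labelled one of its genotype. The PDX1-/- controls held 170.0, 231 and 191 CPM, above every other library for this gene, and the PDX1-/- libraries with ISL1 held 34.1 and 10.2 CPM. The log2 differences were -1.98 ± 0.38 in ISL1-/-, -2.11 ± 0.38 in PAX6-/- and -3.15 ± 0.47 in PDX1-/-.

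An intron of ARPP21 holds MIR128-2, the second human copy of the miR-128 hairpin, at chr3:35744476-35744559; the other copy, MIR128-1, lies in an intron of R3HDM1. The mature sequences, from RefSeq (GRCh38.p14), are shown because the host gene moved so widely here; capitals mark the seed, bases 2 to 8 from the 5′ end.
hsa-miR-128-3p: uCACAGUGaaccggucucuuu
hsa-miR-128-2-5p: gGGGGCCGauacacuguacgaga
hsa-miR-128-1-5p: cGGGGCCGuagcacugucugaga
The 3p strand is the same from both copies, and the 5p strands share their seed. MIR128-2 held 0 counts in all 21 libraries and MIR128-1 at most 3, in 7 libraries. The libraries were made with a full-length messenger RNA kit, so these counts say nothing about the level of the mature microRNA; R3HDM1, the other host gene, stood between 43.3 and 70.9 CPM in the group means and passed the test in no comparison.

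CBLN1, the secreted synaptic organiser, had its highest values in the PDX1-/- controls and its lowest in WT with ISL1. In WT it stood at 19.3 and 27.1 CPM with BFP and 12.5 and 8.88 CPM with ISL1. The ISL1-/- libraries held 113, 105 and 175 CPM with BFP and 33.6, 40.1 and 48.5 CPM with ISL1, and the PAX6-/- libraries 68.8, 45.0 and 68.9 CPM against 13.5, 16.2 and 19.1 CPM. The 3 PDX1-/- controls were close together at 175, 182 and 175 CPM, while the PDX1-/- libraries with ISL1 held 39.1 and 20.2 CPM. The groups did not overlap in any genotype. Here the log2 differences were -1.68 ± 0.28 in ISL1-/-, -1.90 ± 0.28 in PAX6-/- and -2.58 ± 0.34 in PDX1-/-.

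BRINP3 showed the largest difference of the 5 genes in PDX1-/-. In WT it was at 18.6 and 31.4 CPM with BFP and at 9.36 and 9.74 CPM with ISL1. With BFP and ISL1 respectively, the ISL1-/- libraries held 97.2, 107 and 182 CPM against 30.7, 37.8 and 39.8 CPM, and the PAX6-/- libraries 112, 57.6 and 115 CPM against 22, 21.5 and 19.9 CPM. In PDX1-/- the controls reached 269, 332 and 398 CPM and the ISL1 libraries 51.0 and 10.3 CPM. The ISL1-labelled libraries lay below the BFP-labelled ones in all 4 genotypes, and in PAX6-/- they varied little, with an SD of 1.12 CPM (n = 3). The differences were -1.84 ± 0.42 in ISL1-/-, -2.17 ± 0.43 in PAX6-/- and -3.44 ± 0.54 in PDX1-/- on the log2 scale, the last a 10.9-fold lower level.

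NELL2 differed from the other members in WT. There it stood at 6.92 and 7.62 CPM with BFP and at 20.8 and 23.2 CPM with ISL1, so the ISL1-labelled libraries were higher, by 1.60 ± 0.51 on the log2 scale. In ISL1-/- the BFP libraries held 20.1, 21.7 and 32.9 CPM and the ISL1 libraries 16.8, 17.5 and 19.3 CPM, groups that did not overlap but lay close, with a difference of -0.48 ± 0.40. In PAX6-/- the values were 49.6, 25.9 and 55.9 CPM against 22.4, 28.1 and 12.7 CPM, and the groups overlapped; the difference was -1.06 ± 0.41. In PDX1-/- they were 28.0, 24.4 and 19.8 CPM against 12.4 and 2.82 CPM, a difference of -1.65 ± 0.48. The label "lowered by the ISL1 vector" thus holds for NELL2 as a mean in each knockout, with less separation than for the other genes, and is turned round in WT.

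**Figure D1:**
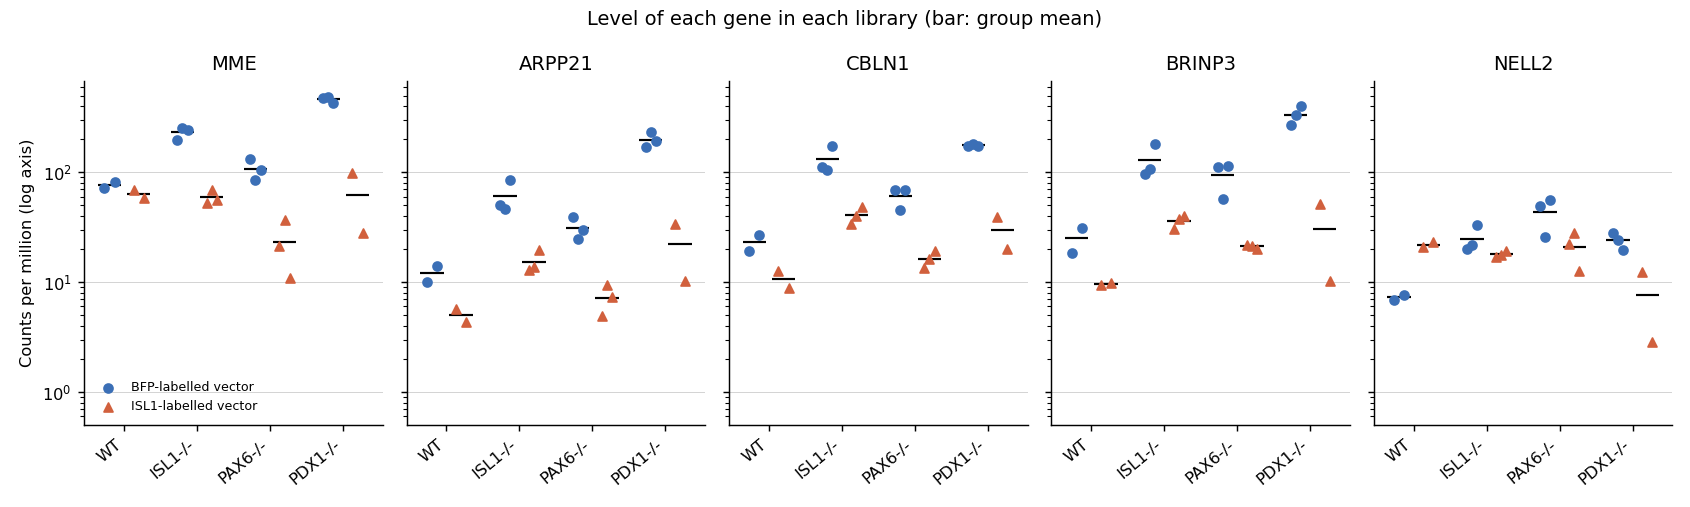
CPM of each gene (log axis) in the 21 libraries, by genotype; circles are BFP-labelled and triangles ISL1-labelled libraries, and bars are group means. For MME, ARPP21, CBLN1 and BRINP3 the triangles lie below the circles in every genotype, while NELL2 is at 20.8 and 23.2 CPM with ISL1 and 6.92 and 7.62 CPM with BFP in WT.

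MME, ARPP21, CBLN1 and BRINP3 lay lower with ISL1 without overlap in all 3 knockouts, as did 2.79% of the 25884 genes tested. Taken singly, non-overlap towards lower values with ISL1 was met by 17.2% of genes in PDX1-/-, 11.9% in ISL1-/- and 8.44% in PAX6-/-. The genes were picked for this difference, so nothing is read from these shares.

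The PDX1-/- values depend on which of the 2 ISL1-labelled libraries is taken. MME was 4.76-fold below the mean of the BFP controls in replicate 2 and 16.6-fold below it in replicate 4; for BRINP3 the ratios were 6.53 and 32.3, for ARPP21 5.78 and 19.4, for CBLN1 4.54 and 8.81, and for NELL2 1.94 and 8.55. Without replicate 4, the library of high mitochondrial share, the log2 differences were -2.25 for MME, -2.53 for ARPP21, -2.18 for CBLN1, -2.71 for BRINP3 and -0.95 for NELL2. Without replicate 2 they were -4.07, -4.29, -3.15, -5.02 and -3.11. Replicate 4 also held far more hormone-cell RNA. Its 8 beta-cell markers summed to 25952 CPM and its 6 alpha-cell markers to 120457 CPM, against 585 and 14347 CPM in replicate 2. No WT library was above 9307 and 54990.1 CPM. A single hormone gene was most of each sum: the means of PDX1-/- with ISL1 were 12888 CPM for INS and 58872 CPM for GCG. The part of these markers in the result was not tested. PAX6-/- with ISL1 replicate 3 stood apart within its group, but in another way. Its alpha-cell markers summed to 7709.6 CPM against 1500.3 and 1128 CPM in replicates 1 and 2. TTR was the larger part of that sum: in the group means TTR was at 2996 CPM and GCG, the glucagon gene, at 133 CPM. The beta-cell markers of replicate 3 summed to 2957 CPM against 865 and 1132 CPM. Its delta-cell markers summed to 502 CPM against 181 and 139 CPM. Enterochromaffin markers, described below, summed to 1277 CPM against 605 and 642 CPM. Replicate 3 also held the lowest MME level of the series, 10.8 CPM. Whether these markers play a part in that level was not tested. In PAX6-/-, leaving out ISL1 replicate 3 gave -1.89 for MME, -2.12 for ARPP21, -2.04 for CBLN1, -2.13 for BRINP3 and -0.79 for NELL2.

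In WT, which the choice of genes did not use, ARPP21, CBLN1 and BRINP3 had lower means with ISL1 and MME nearly the same mean, and none of the differences passed the test. ARPP21 was at 12 ± 2.91 CPM with BFP and 5 ± 0.972 CPM with ISL1 (SD, n = 2 each), and BRINP3 at 25 ± 9.03 and 9.55 ± 0.262 CPM. CBLN1 was at 23.2 ± 5.58 and 10.7 ± 2.57 CPM, and MME at 77 ± 7.27 and 63.6 ± 8.18 CPM. The log2 differences were -0.27 ± 0.47 for MME, -1.26 ± 0.46 for ARPP21, -1.12 ± 0.34 for CBLN1 and -1.39 ± 0.52 for BRINP3. By edgeR's quasi-likelihood F test none of the 4 passed a Benjamini-Hochberg adjusted p of 0.05 over all 25884 genes, with adjusted p of 1 for MME, 0.997 for ARPP21, 0.695 for CBLN1 and 1 for BRINP3; 3 of the 4 had an unadjusted p under 0.05.

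Few genes passed in WT at all: 7 genes or 0.027% of those tested, each higher with ISL1, while 988 had an unadjusted p under 0.05. DESeq2 called none of the 4 either, with adjusted p of 1, 0.464, 0.215 and 0.489. The calls did depend on the fit for CBLN1 and BRINP3. With limma voom and sample quality weights CBLN1 had an adjusted p of 0.0316, and in an edgeR fit of the WT libraries alone BRINP3 had an adjusted p of 0.0384. Without the libraries of high mitochondrial share, a setting chosen after seeing the data, CBLN1 had an adjusted p of 0.042 and BRINP3 of 0.049 by edgeR. Over the 14 alternatives the adjusted p ran from 0.52 to 1 for MME, 0.0531 to 1 for ARPP21, 0.0316 to 1 for CBLN1 and 0.0384 to 1 for BRINP3. All 4 genes had WT groups that did not overlap, lower with ISL1, but so did 20.8% of all genes tested at 2 libraries against 2.

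**Figure D2:**
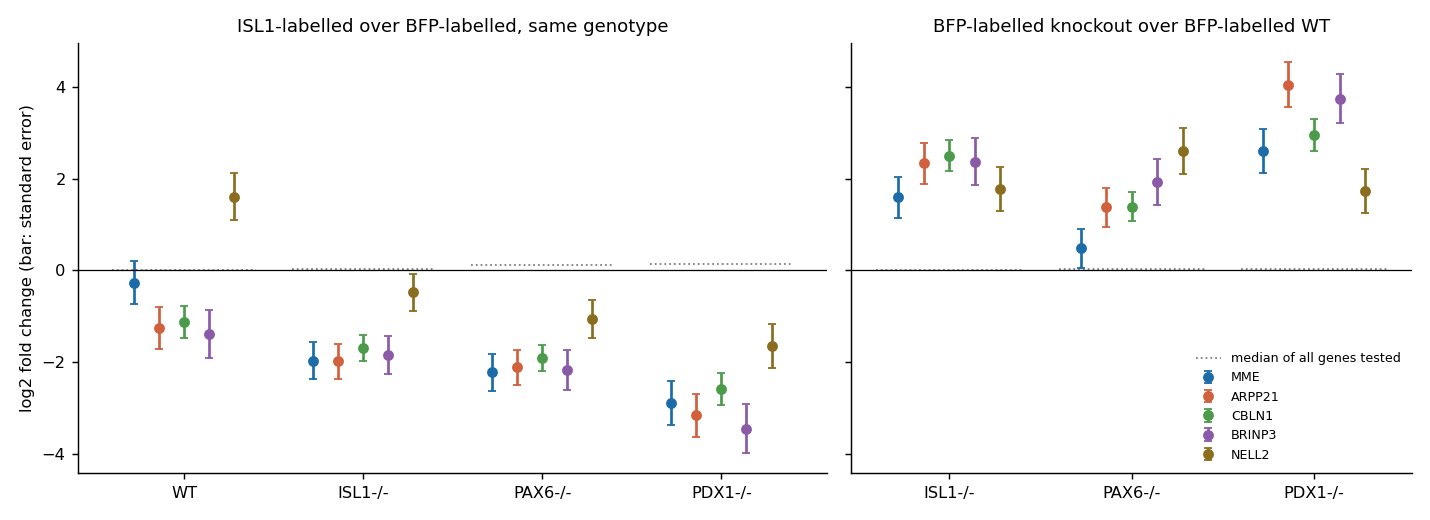
log2 fold change with its standard error for each gene, ISL1-labelled over BFP-labelled within a genotype (left) and BFP-labelled knockout over BFP-labelled WT (right); dotted lines are medians of all genes tested. Values run from -3.44 (BRINP3 in PDX1-/-) to 1.60 (NELL2 in WT) on the left and from 0.48 (MME in PAX6-/-) to 4.04 (ARPP21 in PDX1-/-) on the right.

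The differences between vectors stood beside differences between the control groups. With the BFP vector all 5 genes were higher in each knockout than in WT, without overlap of the libraries; non-overlap towards higher values was met by 26% of genes in ISL1-/-, 25.1% in PAX6-/- and 27% in PDX1-/-. ARPP21 was 5.02-fold above WT in ISL1-/-, 2.59-fold in PAX6-/- and 16.4-fold in PDX1-/-. BRINP3 was 5.15-fold, 3.80-fold and 13.3-fold above WT in the same order. CBLN1 was 5.64-fold, 2.62-fold and 7.66-fold above WT, and MME 3.01-fold, 1.40-fold and 6.04-fold. NELL2 was highest in PAX6-/-, at 6.02-fold, and stood 3.42-fold above WT in ISL1-/- and 3.31-fold in PDX1-/-. These comparisons share their knockout controls with the comparison that chose the genes, and they share the 2 WT controls among themselves.

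Set against WT with BFP, the ISL1-labelled knockout groups lay above it for some of the genes and below it for others. In ISL1-/- with ISL1, ARPP21 was 1.27 times the mean of WT with BFP, BRINP3 1.44 times, CBLN1 1.76 times and MME 0.77 times; CBLN1 was higher and MME lower without overlap. In PAX6-/- with ISL1 the ratios were 0.601 for ARPP21, 0.844 for BRINP3, 0.701 for CBLN1 and 0.299 for MME, and the last 2 genes and ARPP21 were lower without overlap. In PDX1-/- with ISL1 they were 1.84, 1.22, 1.28 and 0.816, and all 4 genes overlapped WT with BFP; these ratios rest on 2 unlike libraries, and for MME the log2 difference ran from -1.47 to 0.34 when 1 library was left out, with a change of sign for the other genes as well. NELL2 was at 2.46 times WT in ISL1-/- and 2.89 times in PAX6-/-, higher without overlap, and at 1.05 times WT in PDX1-/-. Of all genes tested, 29.4% were higher and 27.8% lower without overlap in ISL1-/-, and 18.3% and 16.9% in PAX6-/-.

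Ranked by group mean, MME, ARPP21, CBLN1 and BRINP3 share their 3 highest groups in the same order: PDX1-/- with BFP, ISL1-/- with BFP and PAX6-/- with BFP. For MME each of these stood apart from the next group down, at 465, 231 and 107 CPM, whereas WT with ISL1, PDX1-/- with ISL1 and ISL1-/- with ISL1 (63.6, 62.8 and 59.3 CPM) overlapped. For BRINP3 the ISL1-/- and PAX6-/- controls (129 and 95 CPM) overlapped. For ARPP21 and CBLN1 the PAX6-/- controls overlapped the next group, which was PDX1-/- with ISL1 for ARPP21 (31.1 against 22.2 CPM) and ISL1-/- with ISL1 for CBLN1 (60.9 against 40.7 CPM). For NELL2 the order began with PAX6-/- with BFP (43.8 CPM), each of the first 5 groups overlapped the next, and WT with BFP was last (7.27 CPM).

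Per kilobase of exon, which allows genes to be compared, the PDX1-/- controls held 77.9 CPM per kb of BRINP3, 68.3 of CBLN1, 47.1 of MME, 19.4 of ARPP21 and 3.76 of NELL2. These levels put BRINP3, CBLN1 and MME at percentiles 98.2, 97.8 and 96.4 of the genes tested. In the ISL1-/- controls they stood at percentiles 94.1, 97 and 92, in the PAX6-/- controls at 91.6, 92.2 and 83.4, and in WT with BFP at 73.8, 80.2 and 78.2. ARPP21 was at percentile 89.7 in the PDX1-/- controls and 51.3 in WT with BFP, and NELL2 at 66.9 and 50.7.

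Across the 21 libraries, the log2 CPM of MME, ARPP21, CBLN1 and BRINP3 moved together, with Pearson r from 0.85 (MME with BRINP3) to 0.96 (ARPP21 with CBLN1 and with BRINP3, and CBLN1 with BRINP3). With NELL2 the r was 0.33 to 0.50. Taken on deviations from the group means, r was 0.42 to 0.89 among the 4 genes and 0.63 to 0.87 between them and NELL2. These are descriptions over libraries that share groups, and the 4 genes were picked in part on these libraries. Both libraries of high mitochondrial share are among them, and their part in these r was not tested.

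Promoter windows from RefSeq (GRCh38.p14, the 250 bases before a transcript start) were matched for 3 of the 5 genes, MME, ARPP21 and BRINP3, as 15 windows. The letters TAAT, read on both strands, form the core that homeodomain factors such as ISL1, PDX1 and PAX6 can bind, and the groups of this study differ in those factors. TAAT was found in 9 of the 15 windows and in 47.4% of all 35116 windows of this length. Nearly all of the 9 belong to ARPP21, which has the most windows. Windows of the same gene are not independent, so the 2 figures are not compared. The longer forms TAATG and TAATTA, which contain TAAT, were found in 21.1% and 4.35% of all windows. Among the 15, TAATG was met in windows of ARPP21 and BRINP3, and TAATTA in a single ARPP21 window. Shown are 3 of the 4 windows that overlap no annotated exon, from ARPP21 and BRINP3. Capitals mark TAAT or its reverse complement ATTA.
ARPP21, chr3:35638603-35638852, plus strand: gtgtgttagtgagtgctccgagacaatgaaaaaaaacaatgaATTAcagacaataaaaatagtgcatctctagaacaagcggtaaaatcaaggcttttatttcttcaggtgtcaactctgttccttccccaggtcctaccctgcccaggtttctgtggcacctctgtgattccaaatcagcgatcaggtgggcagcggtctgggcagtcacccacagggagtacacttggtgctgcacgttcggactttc
ARPP21, chr3:35679038-35679287, plus strand: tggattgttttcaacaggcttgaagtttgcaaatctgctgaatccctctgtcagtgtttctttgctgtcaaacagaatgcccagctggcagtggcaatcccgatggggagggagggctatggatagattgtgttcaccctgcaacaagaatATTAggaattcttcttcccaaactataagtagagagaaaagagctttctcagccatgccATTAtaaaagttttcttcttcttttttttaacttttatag
BRINP3, chr1:190475988-190476237, minus strand: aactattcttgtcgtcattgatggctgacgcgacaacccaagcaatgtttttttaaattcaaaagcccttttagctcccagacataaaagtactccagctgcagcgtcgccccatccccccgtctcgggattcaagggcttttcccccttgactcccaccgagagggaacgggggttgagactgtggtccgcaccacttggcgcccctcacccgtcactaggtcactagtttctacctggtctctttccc
Of the windows shown, the upstream ARPP21 window holds 1 match and the inner one 2, while the BRINP3 window holds none. The ARPP21 window not shown, chr3:35639275-35639524, has 77.6% G and C and holds no match. The 4 MME windows, at 63.2% to 73.6% G and C, hold no match. A match is only a run of letters, and these data hold no measure of binding.

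The genes whose log2 CPM followed each of the 5 most closely over the 21 libraries were named by a fixed rule, the 3 highest Pearson r. For MME they were DLL4, a Notch ligand, LMX1A, a LIM-homeodomain factor, and FAXDC2, a fatty acid hydroxylase-domain gene, each with r of 0.97. For ARPP21 they were PDCD6IP-DT, LCA5, a ciliary gene, and TPH1, the first enzyme of peripheral serotonin synthesis, each with r of 0.96. For CBLN1 they were the potassium channel KCNK13 and the coactivator POU2AF1, with r of 0.97, and DDC, the decarboxylase that makes serotonin, with r of 0.95. For BRINP3 they were TPH1 and CNTNAP2, a neurexin-family adhesion gene, with r of 0.98, and SLC18A1, a vesicular monoamine transporter, with r of 0.97. NELL2 had fewer followers: SV2B, a synaptic vesicle protein, and TTC9, with r of 0.91, and LRRC37B with 0.90. Genes with r above 0.9 numbered 68 for MME, 66 for ARPP21, 52 for CBLN1, 96 for BRINP3 and 4 for NELL2.

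The serotonin genes in that list belong to the enterochromaffin marker list (TPH1, FEV, SLC18A1, DDC, LMX1A and TRPA1), which marks serotonin-making cells that also arise in these differentiations. All 6 markers were counted in every library. Their summed level ran from 854 to 991 CPM in WT with BFP and 577 to 613 CPM in WT with ISL1. It ran from 2183 to 2929 CPM in ISL1-/- with BFP and 1003 to 1272 CPM with ISL1, from 1322 to 2139.6 CPM in PAX6-/- with BFP and 605 to 1277 CPM with ISL1, and from 3598 to 4248 CPM in PDX1-/- with BFP and 1299 to 1423 CPM with ISL1. The sum was therefore lower with ISL1 in all 4 genotypes, and highest in the group where MME, ARPP21, CBLN1 and BRINP3 were highest.

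The single markers did not all move alike. TPH1, SLC18A1, DDC and LMX1A are close followers of genes picked for being lower with ISL1, so their values are a description, with no test. DDC was at 678 CPM with BFP and 329.9 CPM with ISL1 in ISL1-/-, 425 and 168 CPM in PAX6-/-, 829 and 326 CPM in PDX1-/-, and 309 and 166 CPM in WT. TPH1 went from 450.2 to 91.2 CPM, SLC18A1 from 409 to 93.4 CPM and LMX1A from 553 to 96.2 CPM in PDX1-/-. FEV, a transcription factor also found in endocrine progenitors, was the most abundant of the 6 and had the mean 1574 CPM with BFP and 741 CPM with ISL1 in PDX1-/-. TRPA1, an ion channel gene, differed from the other 5: it was at 10.4 CPM with BFP and 21.8 CPM with ISL1 in WT and at 13.3 and 13.6 CPM in PDX1-/-, while in ISL1-/- it was at 20.1 and 7.91 CPM and in PAX6-/- at 17.1 and 6.45 CPM. In the BFP controls of each knockout all 6 had a higher mean than in WT.

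Over the 21 libraries the summed level had r of 0.95 with ARPP21 and CBLN1, 0.92 with BRINP3, 0.78 with MME and 0.26 with NELL2. TPH1, SLC18A1, DDC and LMX1A, which are in the sum, were named above as closest followers of these genes, so high r values follow in part from that. The endocrine progenitor sum, which shares FEV, had r of 0.56 with ARPP21, 0.60 with CBLN1, 0.61 with BRINP3, 0.25 with MME and 0.28 with NELL2. On deviations from the group means the r of the enterochromaffin sum was 0.59 for CBLN1, 0.31 for ARPP21, 0.23 for BRINP3, -0.37 for MME and -0.07 for NELL2. The part of enterochromaffin cells in the levels of the 5 genes was not tested.

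**Figure D3:**
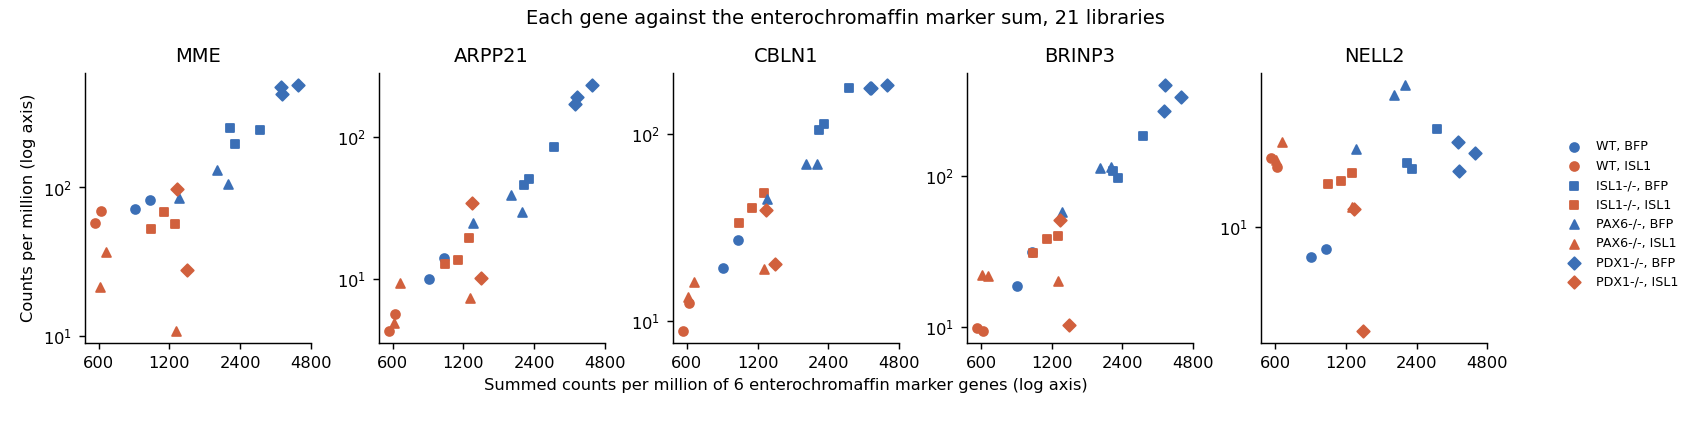
CPM of each gene against the summed CPM of 6 enterochromaffin markers, both on log axes, in the 21 libraries; colours are vectors and shapes are genotypes. ARPP21 and CBLN1 follow the sum with r of 0.95, and NELL2 does not (r of 0.26). The sum includes TPH1 and DDC, which are among the closest followers of ARPP21 and CBLN1.

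Other marker lists moved with the 5 genes as well. The sum of delta-cell markers (SST, HHEX, RBP4, LEPR and GHSR) ran the other way. Its r with the 5 genes was -0.88 to -0.71 over the 21 libraries and -0.86 to -0.36 on deviations from the group means. The sum was higher with ISL1 in every genotype. In WT it was 399.6 to 533 CPM with BFP and 578 to 609 CPM with ISL1. In ISL1-/- it was 39.1 to 67.1 and 142 to 177 CPM, and in PAX6-/- 62.6 to 109.9 and 139 to 502 CPM. In PDX1-/- it was 42.2 to 73.3 and 251 to 1374 CPM. RBP4 was the largest part of the sum in every group. SST, HHEX and RBP4 had higher means with ISL1 in every genotype. LEPR went from 15.1 to 16.3 CPM in WT, 5.67 to 6.87 in ISL1-/-, 15.3 to 12.7 in PAX6-/- and 9.09 to 9.11 in PDX1-/-. GHSR had at most 15 counts in a library and lower means with ISL1. The sum of markers of pancreatic progenitors and duct had r of -0.84 with MME and -0.70 to -0.61 with ARPP21, CBLN1 and BRINP3. KRT19, a keratin gene, was most of that sum, at 1173 CPM in WT with BFP and 554 CPM in the PDX1-/- controls. PTF1A and MUC1 had higher means in each knockout control than in WT, and CFTR and SPP1 lower ones. KRT19, SOX9 and HES1 were mixed. The beta-cell sum had r of -0.69 to -0.40 with the 4 genes. INS, at 6418 CPM in WT with BFP, was most of that sum there. INS, IAPP, G6PC2, SLC30A8 and UCN3 had lower means in each knockout control than in WT. NKX6-1 was at 62.8, 219, 128 and 326 CPM in the WT, ISL1-/-, PAX6-/- and PDX1-/- controls. With ISL1 it was at 44.3, 98.5, 35.2 and 48.1 CPM. MAFA was also higher in each knockout control than in WT, and lower with ISL1 in each knockout. Neural progenitor markers had r of 0.75 with ARPP21, 0.71 with CBLN1 and BRINP3 and 0.50 with MME. They were low throughout and highest in the PDX1-/- controls, at 8.3 to 11.3 CPM for the sum of 7 genes, against 1.42 to 1.43 CPM in WT with BFP and 2.93 to 4.06 CPM in PDX1-/- with ISL1. The part of these cell types in the levels of the 5 genes was not tested.

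The sum of neuronal markers took another order. Over 8 genes it had a median of 422 CPM in WT with BFP and 719 CPM in WT with ISL1. In PDX1-/- the median was 347 CPM with BFP and 368 CPM with ISL1. The r of the sum with ARPP21, CBLN1 and BRINP3 was -0.62, -0.57 and -0.58. SYT4 and GAD2, at 198 and 129 CPM in WT with BFP, made up most of the sum. RBFOX3 was at 7.55, 25.6, 29.2 and 20.3 CPM in the WT, ISL1-/-, PAX6-/- and PDX1-/- controls. With ISL1 it was at 5.86, 12.4, 19.2 and 6.23 CPM. ELAVL3 was also higher in each knockout control than in WT, and lower with ISL1 in each knockout. SLC17A6 was lower in each knockout control than in WT, and ELAVL4, GAD1 and DCX were mixed. Markers of neural crest and glia summed to at most 1.31 CPM in any library. Mesenchyme markers, which varied between libraries of a group, had r of -0.38 to -0.07 with the 4 genes.

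Relatives, partners and like-named genes of the 5 genes were followed as 5 lists with 38 genes in all. Of these, 36 passed the filter on low counts. With ISL1, none of the 36 was called in WT, where 0.027% of all genes were (5 had an unadjusted p under 0.05, and DESeq2 called 0). In ISL1-/- 2 were lower and 0 higher, against 0.382% of all genes called. In PAX6-/- 1 was lower, against 0.355% of all genes, and with the replicate number as a block 4 were called. In PDX1-/- 7 were lower and 1 higher, or 8 of 36, against 12.5% of all genes. None of these 8 PDX1-/- calls passed with limma voom and sample quality weights or in an edgeR fit of the PDX1-/- libraries alone. From WT to ISL1-/-, PAX6-/- and PDX1-/- the median log2 difference of the 36 was 0.12, -0.20, -0.34 and -0.45, against 0.00, 0.03, 0.11 and 0.13 over all genes tested.

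Among the cerebellin partners, NRXN2, a presynaptic neurexin that cerebellins bind, fell with ISL1 in all 3 knockouts. It went from 7.96 ± 1.7 to 3.19 ± 0.576 CPM in ISL1-/- (log2 difference -1.32 ± 0.25, adjusted p = 0.0206), from 5.31 ± 0.87 to 2.29 ± 0.663 CPM in PAX6-/- (-1.22 ± 0.25, adjusted p = 0.0394) and from 7.57 ± 0.764 to 2.71 ± 0.27 CPM in PDX1-/- (-1.48 ± 0.29, adjusted p = 0.00405, edgeR). In WT it was at 2.12 and 2.34 CPM. The PDX1-/- call held without each library of the comparison, with a highest adjusted p of 0.024, and was lost with voom weights (adjusted p = 0.676) and in the fit of PDX1-/- alone (adjusted p = 0.242, edgeR). The ISL1-/- call was lost without BFP replicate 1 or 3 or ISL1 replicate 1 or 2 (highest adjusted p 0.144), and the PAX6-/- call without BFP replicate 1 or 3 or ISL1 replicate 1 or 2 (0.224), with no filter on low counts (0.0656) and in the fit of PAX6-/- alone (0.558).

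CBLN4, a paralogue of CBLN1, went from 11.9 ± 4.27 to 2.84 ± 0.668 CPM in PDX1-/- (-2.06 ± 0.38, adjusted p = 0.00305). That call was lost without ISL1 replicate 4 (adjusted p = 0.0513). NRXN3 fell in PDX1-/- by 1.32 (adjusted p = 0.0324), and that call was lost without any BFP replicate or ISL1 replicate 4 (highest adjusted p 0.404). C1QL1, the most abundant gene of this list per kilobase, stood between 755 and 1394 CPM in the group means and was called in no comparison.

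NELL1, the paralogue of NELL2, fell with ISL1 from 20.9 ± 2.11 to 8.14 ± 0.414 CPM in ISL1-/- (-1.36 ± 0.22, adjusted p = 0.00868) and from 13.2 ± 0.559 to 5.64 ± 0.15 CPM in PDX1-/- (-1.22 ± 0.25, adjusted p = 0.00575, edgeR). It was not called in PAX6-/- (15 to 12.8 CPM, adjusted p = 0.665). The ISL1-/- call was lost without BFP replicate 3 or ISL1 replicate 1 or 2 (highest adjusted p 0.0642), and the PDX1-/- call held without each library but was lost with voom weights (adjusted p = 0.723), in the fit of PDX1-/- alone (0.253) and with the number of the library name as a block (0.0801). The difference between vectors was itself tested between PDX1-/- and WT, where 1.19% of genes tested passed; NELL1 and CBLN4 were the only related genes among them. Of the receptors, ROS1 was at 6.17, 10.5 and 7.87 CPM in the ISL1-/-, PAX6-/- and PDX1-/- controls and at 2.96, 3.4 and 2.19 CPM with ISL1, a difference not called in any of them. ROBO1, the most abundant gene of this list per kilobase, and ROBO3, the receptor of NELL2, were called in no comparison.

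Of the peptidases related to MME, KEL, the Kell blood group metallopeptidase, rose with ISL1 in PDX1-/- from 0.982 ± 0.349 to 5.15 ± 0.0286 CPM (2.39 ± 0.49, adjusted p = 0.00576, edgeR). This held without each library but was lost with voom weights (adjusted p = 0.553), in the fit of PDX1-/- alone (0.237) and with the number of the library name as a block (0.0715). ECE2 was called lower in PDX1-/- but had at most 22 counts in a library. ANPEP, the most abundant peptidase of the list per kilobase, was called in no comparison. ARPP19, a phosphatase inhibitor that shares only its name with ARPP21, was the most abundant of its list per kilobase. It fell in PDX1-/- from 642 ± 42.1 to 266 ± 145 CPM (-1.27 ± 0.29, adjusted p = 0.0112, edgeR). That call was lost without ISL1 replicate 4 (adjusted p = 0.164, edgeR). ASTN2, an astrotactin, was called lower in PDX1-/- by 1.87 (adjusted p = 0.036), and the call was lost without any BFP replicate or ISL1 replicate 4 (highest adjusted p 0.307). BRINP1, the most abundant other BRINP gene, was not called with ISL1 in any genotype.

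Between the BFP controls, 3 of the 36 listed genes were higher and 4 lower in ISL1-/- than in WT. In PAX6-/- 4 were higher and 1 lower, and in PDX1-/- 6 and 4. Of all genes tested, 5.59%, 5.51% and 9.68% were called in the same order. NRXN2 rose in all 3 knockouts, by 1.91 ± 0.29 in ISL1-/- (adjusted p = 0.000851), 1.33 ± 0.29 in PAX6-/- (0.0123) and 1.84 ± 0.29 in PDX1-/- (0.00097). NELL1 rose by 1.53 (0.00145), 1.05 (0.0191) and 0.86 (0.0333), and ROS1 by 2.58 (0.0321), 3.34 (0.00998) and 2.93 (0.0113). DPP4, the surface peptidase that cuts incretins, fell in all 3, from 1766 ± 30.4 CPM in WT to 389.8 ± 105, 366 ± 83.2 and 269 ± 38.7 CPM (adjusted p = 0.0322, 0.0275 and 0.00623, all edgeR). DPP4 thus went the other way from MME, another surface peptidase, which was higher in each knockout.

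Only some of these calls held when single libraries were left out. Of the 33 calls across the 7 comparisons, in 15 genes, 8 held without each library of their comparison: NRXN2 in the ISL1-/- and PDX1-/- controls and with ISL1 in PDX1-/-, NELL1 in the ISL1-/- controls and with ISL1 in PDX1-/-, KEL in the PDX1-/- controls and with ISL1 in PDX1-/-, and DPP4 in the PDX1-/- controls. The 3 of these that compare vectors were the ones lost with voom weights and in the fit of PDX1-/- alone. The ROS1 and DPP4 calls in ISL1-/- and the DPP4 call in PAX6-/- were lost without any 1 library of either group, and the ROS1 calls in PAX6-/- and PDX1-/- and the NRXN2 call in PAX6-/- without WT replicate 1 or WT replicate 3; the last was also lost without PAX6-/- replicate 1. The NELL1 call in PAX6-/- was lost without PAX6-/- replicate 1 or 3 or either WT library, and that in PDX1-/- without any 1 library.

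**Figure D4:**
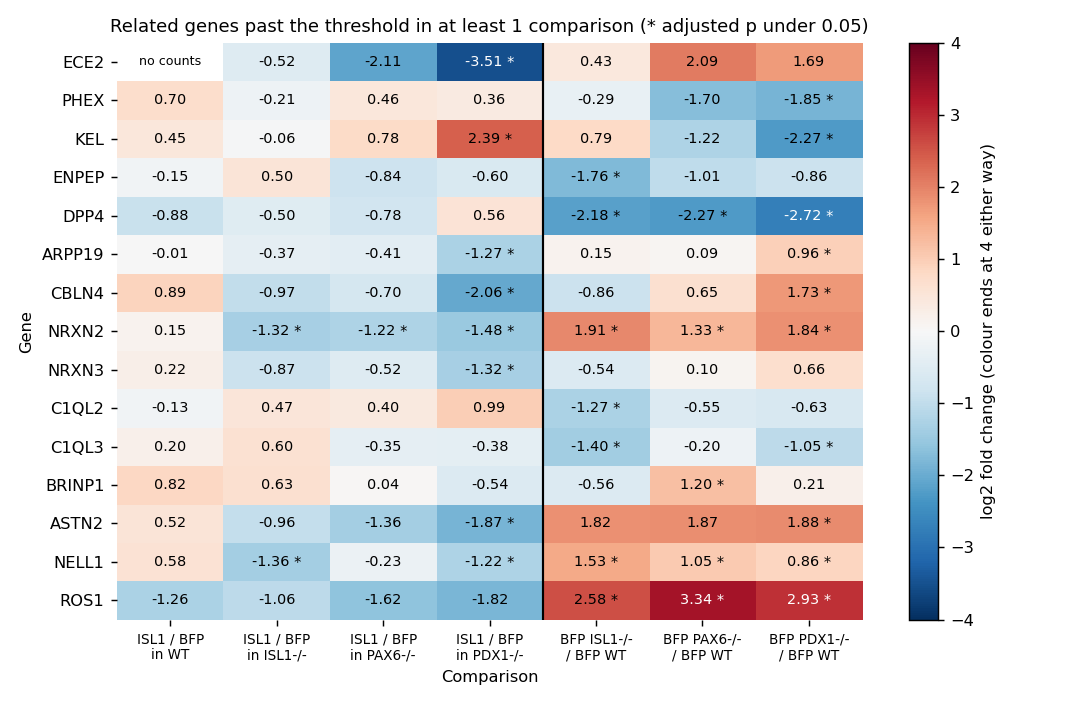
log2 fold change of the 15 related genes called in at least 1 comparison, with the 4 vector comparisons on the left of the line and the 3 comparisons of BFP controls on the right; stars mark an adjusted p under 0.05 (edgeR), and "no counts" marks a group with no count of the gene. NRXN2 is lower with ISL1 in the 3 knockouts (-1.32, -1.22 and -1.48) and higher in the knockout controls than in WT (1.91, 1.33 and 1.84).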

How the data were processed

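RNA of sorted cells from 21 libraries was sequenced by the authors after SMART-Seq v4 preparation, per the labels' protocols. The deposited table holds raw counts per gene; the submitters' processing notes name STAR 2.7.11b, featureCounts 2.1.1 and GRCh38. Totals were 36807615 to 60199880 counts per library. 1 gene whose entry was broken over 3 lines was left out.

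Counts were tested with edgeR 4.0.16 (R 4.3.3): TMM scaling, filterByExpr by group (minimum count 10, total 15), 25884 genes, 1 model with a coefficient per group, the quasi-likelihood F test and Benjamini-Hochberg adjustment per comparison, with calls at adjusted p under 0.05. CPM used TMM library sizes; log2 CPM used a prior count of 2. Alternatives were RLE scaling, no filter, DESeq2 1.42.0, limma 3.58.1 voom with weights, fits of the compared groups only, replicate blocks and leaving out each library. The edgeR fit was run on simulated counts with known folds, to see that it recovered them. Every simulated gene had the same spread and no library was unlike the others, so this says little about calls in these data. The members and lists were chosen with earlier results of these data known. Named genes were the members, their 3 closest by r, called relatives, and the most abundant of each list; ROBO3, R3HDM1 and single enterochromaffin markers were added after their values were seen. Same-numbered libraries deviated together in PAX6-/- (r = 0.155, 0.391 and 0.333, across genes) and in ISL1-/- (0.183, 0.099 and 0.293). Each of these r was the highest of its library. WT (-0.039) and PDX1-/- (-0.212) had a single pair each. Deviations in a group of 2 libraries mirror each other, so these single pairs say little. The main fit held no term for the number, and replicate blocks were among the alternatives. The number came from the library name, which differs from the title's in 3 libraries.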

Additional observations from a re-analysis of the deposited data

Results flagged for a closer look

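The difference between vectors itself differed between PDX1-/- and WT for 2 of the related genes, by edgeR's test of the interaction. For NELL1 the log2 difference in PDX1-/- minus that in WT was -1.80 ± 0.36 (adjusted p = 0.0216), and for CBLN4 it was -2.96 ± 0.54 (adjusted p = 0.0145); 308 of all 25884 genes tested passed the same test. NELL1 was at 7.23 and 10.8 CPM in WT and at 13.2 and 5.64 CPM in PDX1-/- (BFP, then ISL1), and CBLN4 at 3.58 and 6.67 CPM and at 11.9 and 2.84 CPM. The NELL1 call was lost without PDX1-/- with BFP replicate 2 or 3, PDX1-/- with ISL1 replicate 4 or any 1 WT library (highest adjusted p 0.123), and the CBLN4 call without PDX1-/- with ISL1 replicate 4, WT with BFP replicate 3 or either WT library with ISL1 (highest adjusted p 0.0973, edgeR).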

How the results depend on the processing

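The differences between vectors of the 5 genes in the knockouts kept their sign under all 225 alternative values, from -5.02 to -0.23 on the log2 scale. Leaving out 1 library gave, in PDX1-/-, -4.07 to -2.25 for MME, -4.29 to -2.53 for ARPP21, -3.15 to -2.18 for CBLN1, -5.02 to -2.71 for BRINP3 and -3.11 to -0.95 for NELL2, in each case set by PDX1-/- with ISL1 replicates 2 and 4. With the number of the library name as a replicate block CBLN1 was at -2.03 there. The levels of ISL1-labelled knockouts relative to WT with BFP were the least settled. Leaving out 1 library gave, in PDX1-/-, -1.47 to 0.34 for MME, -0.25 to 1.5 for ARPP21, -0.21 to 0.75 for CBLN1, -1.29 to 1.03 for BRINP3 and -1.38 to 0.77 for NELL2; for BRINP3 it gave 0.20 to 0.95 in ISL1-/- and -0.58 to 0.17 in PAX6-/-, changing sign without WT replicate 3. CBLN1 with the block was at 1.03 in PDX1-/-. Between BFP controls CBLN1 in PDX1-/- ran from 2.71 to 3.20. In WT, CBLN1 passed with voom weights (-1.10, adjusted p = 0.0316) and without the libraries of high mitochondrial share (-1.12, adjusted p = 0.042), and BRINP3 in a fit of WT alone (-1.38, adjusted p = 0.0384) and without those libraries (-1.39, adjusted p = 0.049).

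Counts of related genes called moved with the fit, for causes that were not tested. They are given here in the order WT, ISL1-/-, PAX6-/- and PDX1-/- for the vectors, then ISL1-/-, PAX6-/- and PDX1-/- for the BFP controls, where the edgeR fit of all libraries called 0, 2, 1, 8, 7, 5 and 10. Fits of the compared groups only called 2, 9, 0, 0, 15, 16 and 21. Voom with weights called 1, 10, 8, 0, 15, 18 and 22. Without both libraries of high mitochondrial share, added after seeing the data, the calls were 1, 8, 7, 9, 15, 15 and 18. DESeq2 called 2 for the vectors and 9 for the controls of PAX6-/-, and with no filter 0 passed for the vectors in PAX6-/-. With the number of the library name as a replicate block the calls were 4 for the vectors in PAX6-/-, 2 for those in PDX1-/- and 9 for the PAX6-/- controls; the block changed no other count by over 1.5 times. Leaving out 1 library gave 0 to 2, 0 to 4 and 3 to 20 calls for the vectors in ISL1-/-, PAX6-/- and PDX1-/-, and 2 to 8, 0 to 9 and 3 to 12 for the controls. Groups left with 1 library were assumed to vary like the others. With 2 libraries against 2 in WT, and a common biological coefficient of variation of 0.334, a missing call does not show equal levels.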
